A study of Mus musculus with 6 samples.

Results

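The data concern a list of 41 genes of homologous recombination and DNA damage repair, taken by gene symbol from a count table of 55421 mouse genes, and all 41 were found in it. The table holds RNA-seq counts for leukemia cells of the bone marrow from 2 groups of 3 libraries each. Cells of both groups carried AE9a, a truncated form of the AML1-ETO fusion protein, which a retrovirus with a GFP marker had brought into c-Kit+ progenitors of C57BL/6 donor mice, 6 to 8 weeks of age. In AE9a-Ddit4+/+ cells (wild type) the donors had an intact Ddit4 gene, whose protein restrains mTOR under stress, and in AE9a-Ddit4-/- cells (knockout) the donors carried a whole-body knockout allele. According to the labels, equal numbers of GFP+ cells were transplanted into sub-irradiated hosts, which keep blood cells and stroma of their own. The cells came from the bone marrow of transplanted mice with n = 3 per group. Whether these mice carried separately transformed leukemias is not stated. In the cohort that the study describes, fewer knockout mice developed leukemia during follow-up than there are knockout libraries here. Knockout libraries may thus share a transformed clone, and p-values measure the spread between libraries, not between leukemias.

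A break through both strands of DNA can be repaired from an intact sister copy (homologous recombination) or by joining the ends directly. In homologous recombination the ends are first cut back to single strands by the MRN complex (Mre11a, Rad50, Nbn) with Rbbp8 and Exo1, then Brca1, Palb2 and Brca2 prepare the single strands for exchange with the sister copy, in which Xrcc2, Xrcc3 and their relatives take part. The Fanconi anemia genes clear crosslinks between strands and use the same machinery, and because the sister copy exists only after replication, many genes of recombination are transcribed mainly in dividing cells.

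Sequence upstream of the transcription start is shown for 5 genes on which the results turn, namely the lower genes Radx, Xrcc5 and Brca1, the partner gene Bard1, and Trp53bp1, which was higher. The sequences are from RefSeq (GRCm38.p6), run 5′ to 3′ on the strand of the gene and were searched for letters bound by E2F factors, which drive genes of replication, and for the CCAAT box. Capitals mark such letters on either strand. The stretch of Bard1 covers 76 bases, from position -250 to -175 relative to the RefSeq start, and the others are the 120 bases directly before the start.
Radx, chrX:139480247-139480366, plus strand: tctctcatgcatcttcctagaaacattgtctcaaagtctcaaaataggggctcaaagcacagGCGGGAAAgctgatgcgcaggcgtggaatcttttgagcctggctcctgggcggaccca
Xrcc5, chr1:72307301-72307420, plus strand: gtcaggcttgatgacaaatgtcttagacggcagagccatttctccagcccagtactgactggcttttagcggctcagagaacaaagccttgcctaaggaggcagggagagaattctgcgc
Brca1, chr11:101551956-101552075, minus strand: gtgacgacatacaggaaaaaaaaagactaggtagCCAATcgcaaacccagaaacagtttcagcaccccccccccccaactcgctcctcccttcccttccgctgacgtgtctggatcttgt
Bard1, chr1:71103147-71103222, minus strand: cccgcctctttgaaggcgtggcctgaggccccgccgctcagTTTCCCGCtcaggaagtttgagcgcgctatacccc
Trp53bp1, chr2:121271408-121271527, minus strand: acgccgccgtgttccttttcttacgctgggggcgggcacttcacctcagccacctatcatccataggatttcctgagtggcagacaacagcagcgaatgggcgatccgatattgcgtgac
The Radx stretch held an E2F match on the opposite strand, Bard1 held one on the strand shown, Brca1 held a CCAAT box, and Xrcc5 and Trp53bp1 held neither in the bases shown.

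RefSeq promoters of 300 bases, 250 before the start and 50 after it, were at hand for 32 of the 41 genes. The E2F letters searched were TTTCCCGC, TTTGGCGC, TTTCGCGC and TTTGCCGC, and they were found in 8 of the 32 (25.0%), namely Bard1, Brca2, Chek2, Fancg, Msh6, Rad51c, Radx and Xrcc6. Among all 27025 genes with a promoter 2.60% held them, and among the 11602 of these that were tested for expression 4.45% did. Of these 8 genes 2, Fancg and Radx, were lower in the expression test described next, as were 6 of the 32 and 10.7% of all genes tested. The letters CCAAT were in 19 of the 32 (59.4%) against 41.1% of all genes with a promoter and 42.5% of those tested. The letters TTTGAA of the cell cycle homology element were in 2 of the 32 (6.25%) against 20.2% and, among those tested, 15.1%. These matches are descriptions of the sequence, and no binding was measured.

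Levels are CPM, the counts scaled to 1e+06 per library after TMM correction of the totals, and each group is given as mean ± SD over 3 libraries. Fold changes are knockout over wild type on the log2 scale, with standard errors (SE), from edgeR's quasi-likelihood test on 18375 genes, and a gene is called where the Benjamini-Hochberg adjusted p over all of them is below 0.05. The libraries held 62141558 to 72717681 counts, and totals overlapped between the groups. Mitochondrial genes took 5.03 to 7.90% of the counts in wild-type and 11.3 to 16.4% in knockout libraries (exact permutation p 0.1, two-sided, the smallest that 3 against 3 libraries allow). Levels of Xist were 566 to 1032 CPM in wild-type and 20.3 to 129 CPM in knockout libraries, whereas the Y-linked gene Ddx3y was at 0.0589 to 0.0774 and 88.2 to 125 CPM. The knockout libraries thus held RNA of both genes, and from which cells it came was not tested. Sex and genotype cannot be told apart here. Ddit4 itself was at 228, 161 and 342 CPM in the wild-type and 84.9, 77.7 and 85.9 CPM in the knockout libraries, 34.0% of the wild-type mean, and whether the remaining reads fall in the deleted part of the gene is not known. Of 8 genes of leukemia cell identity, all were measured in both groups and 3 were higher in the knockout (37.5%, against 19.4% of all genes tested). Kit rose from 24.7 ± 8.92 to 411 ± 103 CPM (edgeR adjusted p 0.000550). Runx1t1 rose from 11.9 ± 5.83 to 139 ± 67.9 CPM (edgeR adjusted p 0.00295), and Ptprc from 108 ± 56.5 to 578 ± 111 CPM (edgeR adjusted p 0.00416). The other 5 did not pass the test, with log2 fold changes of -0.95 for Itgam, -0.56 for Spi1, -0.10 for Mpo, 0.53 for Runx1 and 0.77 for Cebpa.

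All 41 repair genes passed the filter on low counts. In the knockout 10 were lower (24.4%), 1 was higher (2.44%) and 30 did not pass the test. Over all genes tested 10.7% were lower and 19.4% higher. Over the 8218 more abundant genes (mean log2 CPM over 4) 17.0% were lower and 15.1% higher. The number of lower repair genes was 5 without wild-type library 1 or 3, 6 without knockout library 1 or 2, and 16 with DESeq2. The median log2 fold change over the 41 genes was -0.69, against 0.04 over all genes tested and -0.17 over the more abundant genes. The value lay below 0 for 36 of the 41 genes (87.8%), against 48.6% of all genes tested and 58.7% of the more abundant genes. All 3 knockout libraries were below all 3 wild-type libraries for 21 genes (51.2%, against 22.2% of all genes tested and 30.8% of the more abundant genes). They were above them for 2 genes, Atm and Trp53bp1 (4.88%, against 27.9% and 21.3%). For the other 18 the groups overlapped. In bulk RNA, fewer cells of a type and less RNA per cell cannot be told apart.

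**Figure D1:**
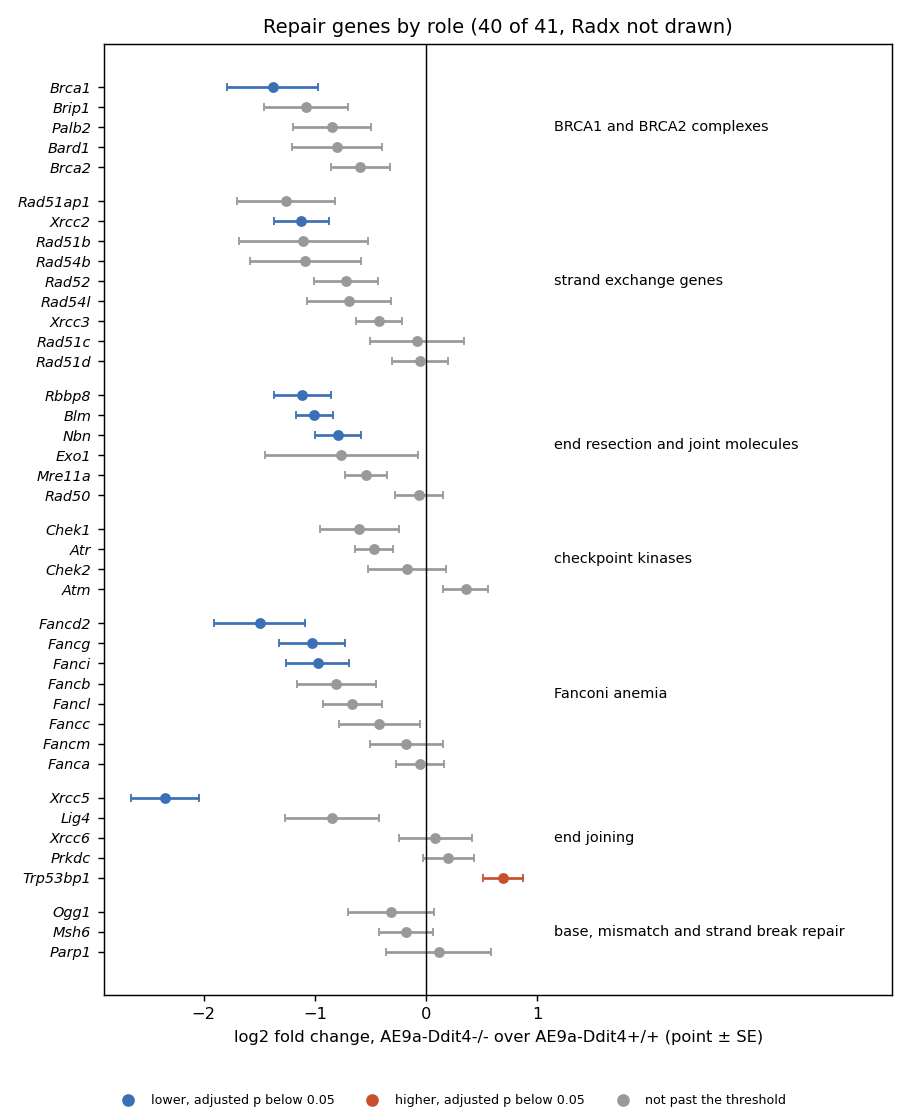
Log2 fold change of 40 repair genes, knockout over wild type (points, with SE as bars), grouped by role, and coloured by the edgeR call at an adjusted p below 0.05. Most points lie left of 0, Xrcc5 lies farthest left at -2.35, and Trp53bp1 at 0.70 is the only gene called higher (Radx, with 0 counts in the knockout, is not drawn).

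Levels differed among the knockout libraries. Relative to the wild-type mean, the median log2 level of the 41 genes was -0.91, -0.51 and -0.40 in knockout libraries 1, 2 and 3, and 0.06, -0.12 and 0.11 in the wild-type libraries. The lists of cell cycle genes moved with it. For 40 S phase genes, none of them among the 41, the corresponding medians were -1.94, -0.63 and -0.64 in the knockout and 0.36, -0.43 and 0.05 in the wild type. Past the threshold, 12 of them were lower (30.0%) and 1 was higher (2.5%). For 52 genes of G2 and M phase the medians were -1.67, -0.87 and -0.63 in the knockout and 0.06, 0.02 and -0.04 in the wild type, with 28 lower (53.8%) and 0 higher. The shares over all genes tested were 10.7% lower and 19.4% higher, and over the more abundant genes 17.0% and 15.1%. Knockout library 1 was thus the lowest in each of these lists, and the part of the cell cycle genes in the result was not tested.

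**Figure D2:**
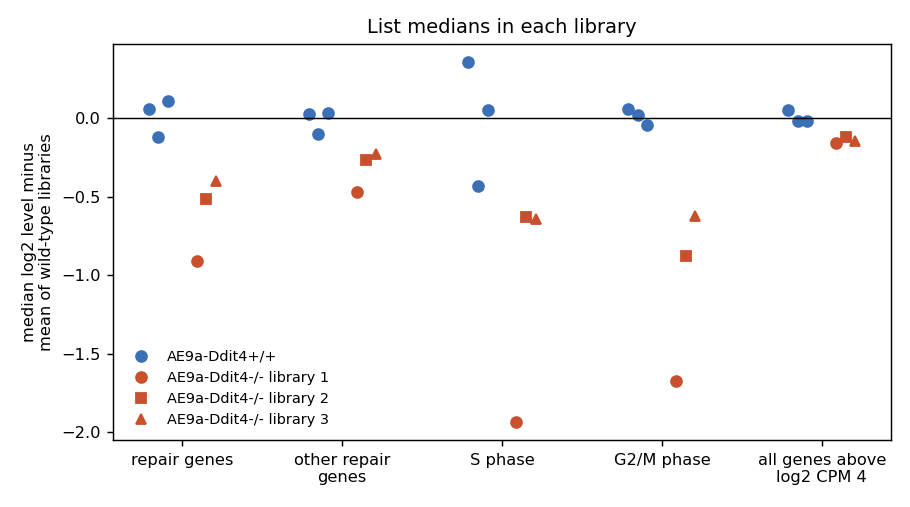
Median log2 level in each library minus the mean of the wild-type libraries, for the 41 repair genes, 99 other repair genes, S phase genes, genes of G2 and M phase, and all genes above a log2 CPM of 4. Knockout library 1 (red circle) is at -0.91 for the repair genes and at -1.94 for S phase genes, below the other knockout libraries.

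Among the genes of the BRCA1 and BRCA2 complexes, 1 of 5 was lower and all 5 fold changes were below 0 (median -0.84). The shares over all genes tested were 10.7% and 48.6%. All knockout libraries were below all wild-type libraries for 4 of the 5, against 22.2% of all genes tested. Brca1, a ubiquitin ligase that directs breaks toward recombination (chr11:101488764-101551955, minus strand), was at 99.6, 68.9 and 68.0 CPM in the wild-type and 13.6, 35.5 and 41.7 CPM in the knockout libraries. The groups did not overlap, and knockout library 1 was far below the other two. The means were 78.8 ± 18.0 and 30.3 ± 14.7 CPM, so Brca1 fell by 1.38 on the log2 scale (SE 0.41, edgeR adjusted p 0.0394). That call was lost when wild-type library 1 was left out (adjusted p 0.116), and also without wild-type library 2 (0.0505), wild-type library 3 (0.0732) or knockout library 2 (0.0741).

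Bard1, the obligate partner of Brca1 in the ligase, was at 39.1, 26.4 and 25.5 CPM in the wild-type and 8.29, 21.5 and 22.4 CPM in the knockout libraries. Here too the knockout libraries were all below the wild-type libraries, but the value did not pass the test (-0.80 on the log2 scale, SE 0.40, edgeR adjusted p 0.174). Brca2, which acts on the single strands, was at 45.1, 32.9 and 54.5 CPM against 23.7, 28.2 and 36.1 CPM, and the groups overlapped (-0.59, SE 0.27, edgeR adjusted p 0.133). Palb2, the bridge between Brca1 and Brca2, was at 11.98, 11.0 and 11.5 CPM against 5.01, 4.95 and 9.19 CPM (-0.84, SE 0.35, edgeR adjusted p 0.106). The helicase gene Brip1 was at 22.1, 21.6 and 25.1 CPM against 6.47, 9.10 and 17.0 CPM (-1.08, SE 0.38, edgeR adjusted p 0.0677). Palb2 and Brip1 thus had no overlap between the groups and missed the threshold.

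Of the 9 strand exchange genes, 1 was lower (11.1%, near the 10.7% of all genes tested), and the median was -0.72 with all 9 values below 0. Xrcc2, a subunit of the BCDX2 complex, was at 22.4, 20.6 and 23.3 CPM in the wild-type and 8.62, 12.03 and 9.84 CPM in the knockout libraries. Both groups were tight, and they lay far apart. Xrcc2 fell from 22.1 ± 1.34 to 10.2 ± 1.73 CPM (-1.12 on the log2 scale, SE 0.25, edgeR adjusted p 0.0131).

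The other paralogues gave different values. Rad51c, found in both paralogue complexes, was at 4.08, 2.09 and 4.05 CPM against 3.42, 2.47 and 3.78 CPM (-0.08, SE 0.43), and Rad51d was at 22.7, 27.4 and 31.7 CPM against 31.0, 20.2 and 27.6 CPM (-0.05, SE 0.25). The groups of these genes overlapped widely. Rad51b was low in all libraries, at 4.89, 1.71 and 5.12 CPM against 0.932, 2.40 and 2.11 CPM (-1.11, SE 0.58, edgeR adjusted p 0.190). Xrcc3, the partner of Rad51c, was at 25.9, 26.5 and 23.0 CPM against 17.9, 18.8 and 19.6 CPM, without overlap but with a small difference that did not pass the test (-0.42, SE 0.21, edgeR adjusted p 0.162). Because the 4 paralogues of the BCDX2 complex (Rad51b, Rad51c, Rad51d and Xrcc2) differ in their SE, a call for Xrcc2 and none for the others does not show that they differ, and that difference was not tested.

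Among the cofactors, Rad51ap1, which stimulates strand pairing, was at 41.3, 28.7 and 38.6 CPM against 6.52, 15.8 and 23.0 CPM (-1.26, SE 0.44, edgeR adjusted p 0.0664). Rad52, an annealing protein, was at 9.73, 10.7 and 11.3 CPM against 6.02, 5.71 and 7.52 CPM (-0.72, SE 0.29, edgeR adjusted p 0.0995). For both, all knockout libraries were below all wild-type libraries. The motor genes Rad54l and Rad54b had values of -0.69 and -1.09 (SE 0.38 and 0.50), with overlap. The exons of Rad54b share 35.8% of their bases with Fsbp, and the use of strand in counting is not given, so reads of these genes may not have been kept apart.

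Of the 6 genes of end resection and joint molecules, 3 were lower and all values were below 0 (median -0.78). Among all genes tested, 10.7% were lower and 48.6% had values below 0. Blm, the helicase that dissolves joined molecules, had the second highest level of the 41 genes per kilobase of exon in the wild type, at 23.5 ± 1.96 CPM per kb. Its level was 192, 203 and 225 CPM in the wild-type and 106, 108 and 94.2 CPM in the knockout libraries. The knockout libraries sat close together at 49.7% of the wild-type mean. Blm fell by 1.01 on the log2 scale (SE 0.17, edgeR adjusted p 0.00439), and passed the threshold of 0.05 under every alternative fit run.

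Rbbp8, which encodes CtIP, the cofactor that starts resection, was at 127, 76.6 and 80.1 CPM in the wild-type and 36.5, 49.96 and 44.8 CPM in the knockout libraries. It fell from 94.7 ± 28.3 to 43.7 ± 6.80 CPM (-1.11, SE 0.26, edgeR adjusted p 0.0160), and without knockout library 1 the adjusted p was 0.0565. Exo1, the exonuclease of long-range resection, had the widest spread among knockout libraries relative to its mean, with 2.71 CPM in library 1 and 21.4 and 21.6 CPM in libraries 2 and 3. Its wild-type libraries were at 35.4, 17.5 and 24.8 CPM, and the groups overlapped (-0.76, SE 0.69, edgeR adjusted p 0.440).

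Of the 3 subunits of the MRN complex, 1 passed the test. Nbn, the subunit that recruits Atm, was at 58.7, 44.4 and 56.6 CPM against 26.5, 33.8 and 31.9 CPM, and fell by 0.79 on the log2 scale (SE 0.21, edgeR adjusted p 0.0255). Mre11a, the nuclease, was at 58.2, 50.8 and 57.0 CPM against 35.4, 42.9 and 36.0 CPM, without overlap but short of the threshold (-0.54, SE 0.19, edgeR adjusted p 0.0631). Rad50, the ATPase, was at 66.9, 72.1 and 91.5 CPM against 63.7, 66.7 and 90.5 CPM, with groups that overlapped almost fully (-0.06, SE 0.22). Whether the subunits differ in their change was examined only by the ratios given next. The call for Nbn was lost without wild-type library 1 (adjusted p 0.0793), wild-type library 3 (0.0828), knockout library 1 (0.0742) or knockout library 3 (0.0654).

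Ratios of partner genes within a library do not depend on the scaling of libraries, and 6 were computed per kilobase of exon, with pairs chosen after the values were seen. The ratio of Nbn to Rad50 was 1.86, 1.31 and 1.31 in the wild-type and 0.882, 1.07 and 0.749 in the knockout libraries. The ratio of Brca1 to Bard1 was 1.69, 1.73 and 1.77 in the wild-type and 1.09, 1.09 and 1.23 in the knockout libraries. Both ratios were lower in all knockout libraries, and for each the exact permutation p (two-sided) was 0.1, the smallest possible with 3 against 3, or 0.2 after Benjamini-Hochberg adjustment over the 6 ratios. Ratios of Mre11a to Rad50, Fancd2 to Fanci and Brca2 to Palb2 overlapped between the groups. The median log2 fold change of genes above a log2 CPM of 4 was -0.24 on chromosome 11, which holds Brca1. It was 0.23 on chromosome 1, which holds Bard1. Relative to the medians of their chromosomes, Brca1 was at -1.14 and Bard1 at -1.04, and Nbn was at -0.47 and Rad50 at 0.18. The part of the chromosomes in these ratios was not tested.

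**Figure D3:**
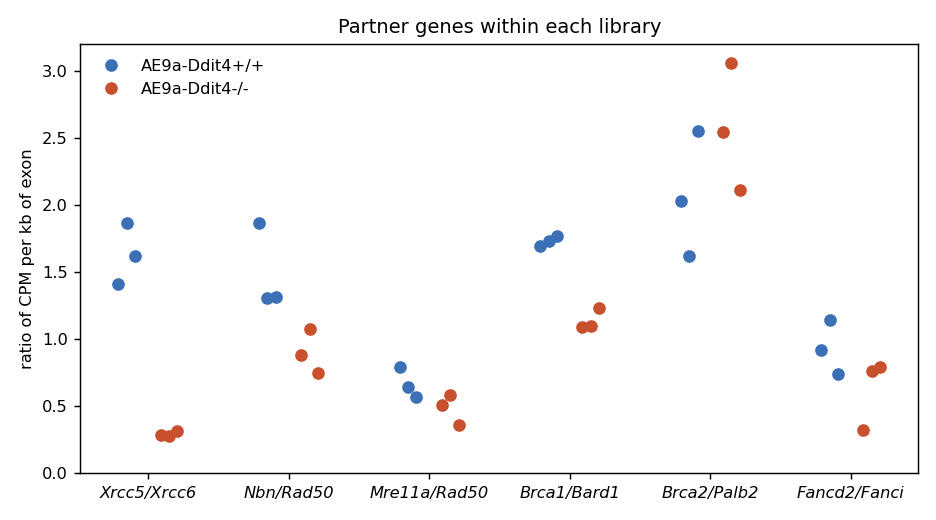
Ratio of the levels (CPM per kb of exon) for 6 pairs of listed genes in each library, wild type in blue and knockout in red. Xrcc5 to Xrcc6 lies between 1.41 and 1.86 in the wild-type and between 0.275 and 0.310 in the knockout libraries, whereas the ratio of Brca2 to Palb2 overlaps.

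None of the 4 checkpoint kinases passed the test (median -0.32). Atr, which answers to single-stranded DNA at stalled forks, was at 59.7, 60.5 and 64.4 CPM in the wild-type and 44.1, 43.0 and 46.4 CPM in the knockout libraries. Its groups were narrow and did not overlap, and the value came near the threshold (-0.47, SE 0.17, edgeR adjusted p 0.0721). Atm, which answers to double-strand breaks, was at 23.2, 23.0 and 24.7 CPM against 33.8, 27.7 and 29.4 CPM. Atm was thus above the wild type in all knockout libraries, by an amount that did not pass the test (0.36, SE 0.20, edgeR adjusted p 0.215).

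The effector kinases showed overlap. Chek1, downstream of Atr, was at 37.2, 23.7 and 35.4 CPM against 11.7, 25.6 and 26.2 CPM (-0.60, SE 0.36, edgeR adjusted p 0.243). Chek2, downstream of Atm, was at 8.99, 18.5 and 20.2 CPM against 14.6, 12.2 and 15.7 CPM (-0.17, SE 0.35, edgeR adjusted p 0.744).

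Of the 8 Fanconi anemia genes, 3 were lower (37.5%, against 10.7% of all genes tested) and all 8 values were below 0 (median -0.73). Fancd2, which is ubiquitinated at crosslinks together with Fanci, was at 43.6, 36.3 and 34.7 CPM in the wild-type and 6.62, 12.7 and 21.3 CPM in the knockout libraries. The knockout libraries were all below the wild type and differed among themselves more than those of the wild type. Fancd2 fell by 1.496 on the log2 scale (SE 0.41, edgeR adjusted p 0.0300), from 38.2 ± 4.77 to 13.5 ± 7.38 CPM. Without wild-type library 1 its adjusted p was 0.0861, without wild-type library 3 it was 0.0653 and without knockout library 2 it was 0.0868.

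Fanci was at 34.7, 23.2 and 34.3 CPM against 15.2, 12.1 and 19.6 CPM (-0.97, SE 0.28, edgeR adjusted p 0.0348). Of its exon bases 16.0% overlap those of Polg, which was itself lower (-0.78, edgeR adjusted p 0.0133), so the reads of these genes may not have been kept apart. Fancg, a scaffold subunit of the core ligase complex, was at 22.6, 18.8 and 26.1 CPM against 8.53, 9.99 and 14.7 CPM (-1.02, SE 0.30, edgeR adjusted p 0.0354). For Fanci and Fancg, leaving out wild-type library 1, wild-type library 3, knockout library 1 or knockout library 2 ended the call, with adjusted p of 0.0964 to 0.111 for Fanci and 0.0866 to 0.118 for Fancg.

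Among the Fanconi genes that did not pass the test, Fancb and the ligase Fancl lay below the wild type in all knockout libraries, with values of -0.81 (SE 0.36) and -0.66 (SE 0.27). The groups overlapped for Fancc (-0.42, SE 0.36), for the translocase Fancm (-0.18, SE 0.33) and for Fanca (-0.06, SE 0.21). Fanca was at 81.2, 82.4 and 95.0 CPM in the wild-type and 62.9, 87.6 and 98.3 CPM in the knockout libraries, so only knockout library 1 was below the wild-type range.

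The 5 end joining genes had a median of 0.09, with 1 gene lower and 1 higher (10.7% and 19.4% of all genes tested). Xrcc5 encodes Ku80, which forms with Ku70 (Xrcc6) the ring that binds broken ends (chr1:72307421-72394952, plus strand). Xrcc5 was at 45.7, 25.0 and 42.6 CPM in the wild-type and 6.20, 7.37 and 8.65 CPM in the knockout libraries. Every knockout library was below the lowest wild-type library by more than the range among knockout libraries. Xrcc5 fell from 37.7 ± 11.2 to 7.41 ± 1.22 CPM, 5.09-fold (-2.35 on the log2 scale, SE 0.31, edgeR adjusted p 0.00191), and it passed the threshold of 0.05 under every alternative fit, with values from -2.57 to -2.19.

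Xrcc6 (chr15:81987835-82040085, plus strand) was at 56.9, 23.5 and 46.2 CPM against 38.4, 47.0 and 48.9 CPM, with groups that overlapped (0.09, SE 0.33, edgeR adjusted p 0.864). The ratio of Xrcc5 to Xrcc6 per kilobase of exon was 1.41, 1.86 and 1.62 in the wild-type and 0.283, 0.275 and 0.310 in the knockout libraries. The knockout mean was 0.178 times the wild-type mean (exact permutation p 0.1, two-sided, adjusted 0.2). Median fold changes of genes above a log2 CPM of 4 were 0.23 on chromosome 1, which holds Xrcc5, and 0.39 on chromosome 15, which holds Xrcc6. Chromosome 16, which holds Prkdc, was at 0.25. The other autosomes and the X chromosome were at -0.44 to -0.13. Relative to its own chromosome, Xrcc5 was at -2.58, Xrcc6 at -0.31, Prkdc at -0.05 and Parp1 (chromosome 1) at -0.12. Atm and Trp53bp1, the other genes with fold changes above 0, were at 0.61 and 0.95. The part of the chromosome in these values was not tested.

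Genes around Xrcc5 had values on both sides of 0. Pecr, 23.1 kb before its start, was at -0.80 (SE 0.62, edgeR adjusted p 0.367), Smarcal1, 276 kb after it, was higher at 0.59 (SE 0.19, edgeR adjusted p 0.0482), Rpl37a, 404 kb after it, was at -0.13 (SE 0.18, edgeR adjusted p 0.624), and Igfbp5, 567 kb after it, was lower at -4.45 (SE 0.77, edgeR adjusted p 0.00527). These genes were chosen after their values were seen, and their difference from Xrcc5 was not tested.

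Prkdc, the catalytic kinase that Ku recruits, was at 39.4, 45.5 and 42.1 CPM against 51.9, 35.7 and 58.4 CPM (0.20, SE 0.23, edgeR adjusted p 0.549). Lig4, the ligase of this pathway, was at 3.10, 4.11 and 5.48 CPM against 2.81, 1.61 and 2.62 CPM, without overlap and without a call (-0.85, SE 0.42, edgeR adjusted p 0.168).

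Trp53bp1 encodes 53BP1, which protects ends from resection and opposes Brca1 (chr2:121193281-121271407, minus strand). It was at 39.8, 40.8 and 43.3 CPM in the wild-type and 75.1, 60.3 and 65.3 CPM in the knockout libraries. The knockout libraries were all above the wild-type libraries, which lay within a narrow range. Trp53bp1 rose from 41.3 ± 1.76 to 66.9 ± 7.53 CPM, 1.62-fold (0.70, SE 0.18, edgeR adjusted p 0.0240). Its exons share 15.04% of their bases with Tubgcp4, which did not pass the test (-0.35, edgeR adjusted p 0.279). Leaving out any library except wild-type library 2 took the call away, with adjusted p of 0.0530 to 0.0733.

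**Figure D4:**
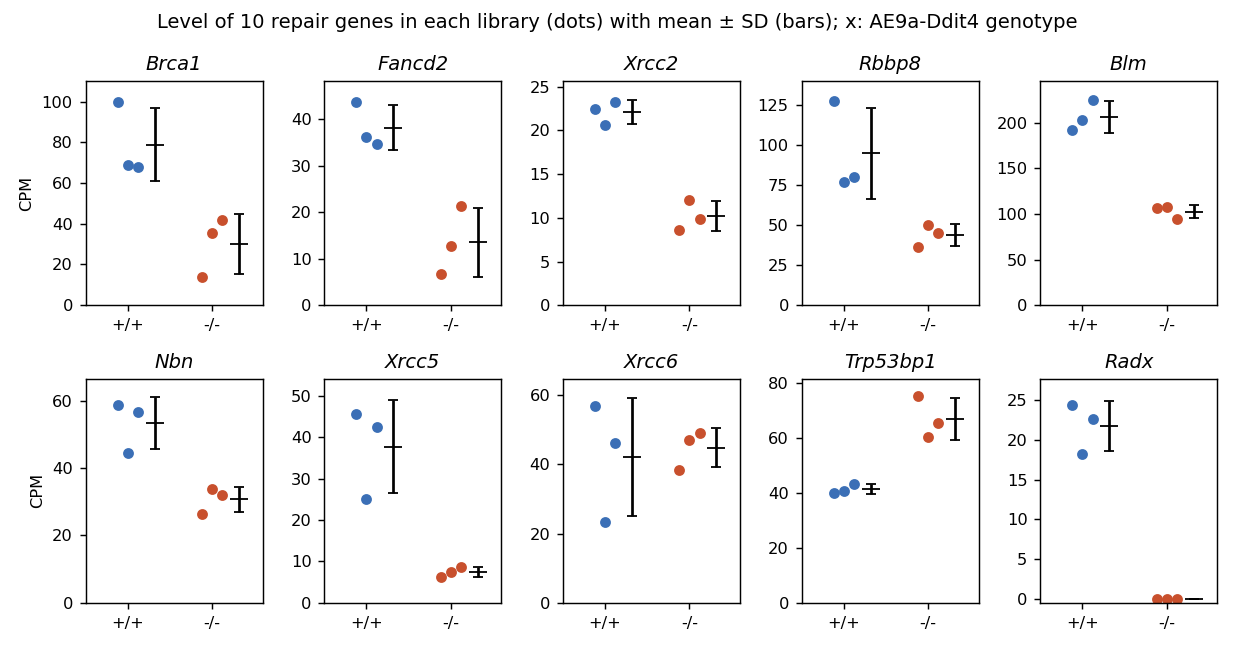
CPM in each library (dots, wild type in blue and knockout in red) with mean ± SD (bars) for 10 repair genes, each axis starting at 0. Knockout dots lie below all wild-type dots for Brca1, Fancd2, Xrcc2, Rbbp8, Blm, Nbn, Xrcc5 and Radx, above them for Trp53bp1 and among them for Xrcc6.

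None of the 3 genes of base, mismatch and strand break repair passed the test, and all 3 had overlapping groups. Parp1, the sensor of strand breaks, had the highest mean level per kilobase of exon of the 41 genes in the wild type, 26.5 ± 16.3 CPM per kb. It varied within groups, at 234, 65.7 and 121 CPM in the wild-type and 91.7, 193 and 171 CPM in the knockout libraries (0.11, SE 0.47, edgeR adjusted p 0.875). The spread of Parp1 includes the levels of Blm, so the order of these leading genes is not resolved. Msh6, a mismatch sensor, was at 101, 94.6 and 76.9 CPM against 61.6, 105 and 72.9 CPM (-0.18, SE 0.24). Ogg1, the glycosylase for oxidised guanine, was at 10.4, 5.05 and 11.7 CPM against 6.42, 8.35 and 6.95 CPM (-0.32, SE 0.39). Its exons share 10.6% of their bases with Camk1, which rose from 3.83 to 65.5 CPM (4.10, edgeR adjusted p 0.000390), so reads of Camk1 may be part of the value of Ogg1. Of the 41 genes, 8 share at least 10% of their exon bases with another gene. At the other end of the levels were Rad51c, Lig4 and Rad51b, at 0.778 ± 0.260, 0.813 ± 0.229 and 1.04 ± 0.508 CPM per kb in the wild type, which did not differ beyond their spread.

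Radx, a single-strand binding protein of replication forks (chrX:139480367-139554582, plus strand), stood apart from the other 40 genes. It had 1536, 1234 and 1461 counts (24.3, 18.2 and 22.6 CPM) in the wild-type libraries and 0 counts in all 3 knockout libraries. Against a limit of detection of 12 counts per library, its level was at least 118-fold lower in the knockout (edgeR adjusted p 0.000293). The limit covers counting error only, and it allows for 4 counts per fragment because low values in the table pile up at multiples of 4. Radx is 1 of 2 genes of the list on the X chromosome. The other is Fancb, at 12.3, 16.4 and 9.66 CPM against 5.11, 7.47 and 9.37 CPM.

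The genes beside Radx on the X chromosome were inspected after this value was seen. Rnf128, which starts 82.9 kb after Radx, was at 119 CPM in the wild type and 0.304 CPM in the knockout (-8.60, SE 0.96, edgeR adjusted p 0.00112). Tbc1d8b, 205 kb after it, fell from 26.5 to 8.62 CPM (-1.62, SE 0.32, edgeR adjusted p 0.00903), and Rbm41, 518 kb after it, was at 17.5 and 18.0 CPM. On the other side the order of the groups was the opposite. Trap1a, Platr21 and Pwwp3b, which start 147, 123 and 270 kb away, had 0 counts in all wild-type libraries and means of 126, 1.54 and 6.48 CPM in the knockout. The stretch thus held genes without a count in one group or in the other, beside genes measured in both, and the parts of sex and genotype in this cannot be told apart.

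**Figure D5:**
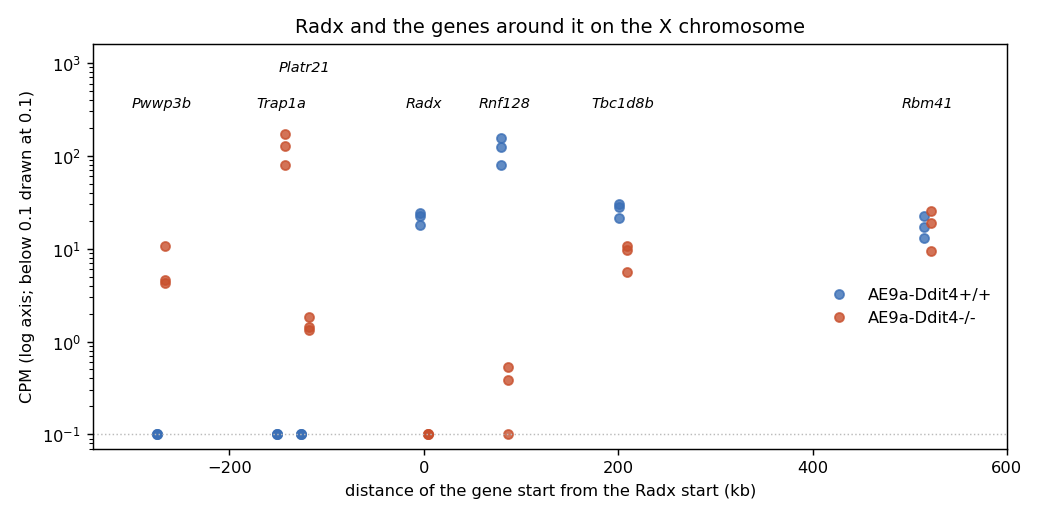
CPM in each library (log axis, values below 0.1 drawn at 0.1) against the distance of each gene start from that of Radx in kb, with wild type in blue and knockout in red. Radx and Rnf128 are near or at the bottom in the knockout only, and Pwwp3b, Trap1a and Platr21 in the wild type only.

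A list of 99 other DNA repair genes, all of which were tested, had a median log2 fold change of -0.40. In it 18 genes were lower (18.2%, against 10.7% of all genes tested and 17.0% of the more abundant genes). Another 12 were higher (12.1%, against 19.4% and 15.1%). The list shares 8 genes with the S phase list. The number lower ranged from 6 (without wild-type library 3) to 21 and the number higher from 2 to 8 when a library was left out, and DESeq2 gave 25 and 14. Among genes past the threshold, the largest falls were in Clspn, the adaptor that lets Atr activate Chek1, and in the helicase genes Recql and Helq. Clspn was at 116, 68.5 and 74.4 CPM against 7.66, 25.1 and 34.4 CPM (-1.95, SE 0.52, edgeR adjusted p 0.0272). Recql was at 109, 105 and 105 CPM against 30.7, 38.5 and 46.1 CPM (-1.47, SE 0.20, edgeR adjusted p 0.00231). Helq was at 24.2, 22.0 and 27.8 CPM against 6.59, 8.28 and 12.1 CPM (-1.45, SE 0.30, edgeR adjusted p 0.0101). In none of these did the groups overlap.

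The largest rises past the threshold in that list were in genes of low level. Mgmt, which reverses alkylation of guanine, was at 0.253, 0.147 and 0.619 CPM in the wild-type and 0.867, 7.29 and 6.24 CPM in the knockout libraries (3.81, SE 0.93, edgeR adjusted p 0.0196). Dmc1, the recombinase of meiosis, was at 0.649, 3.62 and 0.356 CPM against 5.43, 16.9 and 22.2 CPM (3.26, SE 0.96, edgeR adjusted p 0.0380). Neil2, a glycosylase for oxidised bases, had at most 5 counts in the wild type and was at least 2.79-fold higher in the knockout (edgeR adjusted p 0.0404).

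The make-up of the libraries differed between the groups as well. The counts of called markers below stand beside 10.7% lower and 19.4% higher over all genes tested. Of 13 erythroid marker genes 11 were lower in the knockout, and their summed level was 7832 to 16481 CPM in the wild-type and 524 to 1107 CPM in the knockout libraries. Of 11 neutrophil markers 5 were lower and 1 higher, with sums of 6814 to 10548 CPM against 1499 to 4633 CPM. Of 10 megakaryocyte and platelet markers tested 8 were higher and 1 lower, with sums of 107 to 171 CPM against 2358 to 3273 CPM. Of B cell markers 6 of 7 tested were higher (sums of 1.05 to 4.86 against 64.5 to 128 CPM), of T and NK cell markers 7 of 8 (10.2 to 47.7 against 79.7 to 102 CPM), and of stromal and endothelial markers 5 of 9 (6.98 to 12.4 against 321 to 332 CPM). No marker list held a gene that was at 0 in all knockout libraries. Markers with 0 counts in all wild-type libraries were 1 gene of the megakaryocyte and platelet list, Ms4a1 and Vpreb3 of the B cell list, Trac, Ncr1 and Klrb1c of the T and NK cell list, and Emcn of the endothelial list. The part of these shifts in the levels of the repair genes was not tested.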

How the data were processed

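RNA-seq was analysed for 3 AE9a-Ddit4+/+ and 3 AE9a-Ddit4-/- libraries, grouped by sample titles. The authors deposited 1 table of unscaled counts per Ensembl gene from paired reads of 150 bp. The labels name an mRNA kit and the methods a directional kit for rRNA-depleted RNA. The submitters' processing notes list GRCm38 and mm10. The aligner, counting tool, annotation and use of strand are not given in the sources used here. Low counts piled up at multiples of 4, so some fragments may have been counted more than once.

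Genes were tested in R 4.3.3 with edgeR 4.0.16 (filterByExpr, TMM, glmQLFit and glmQLFTest with robust estimation), with genotype as the only term and Benjamini-Hochberg adjustment over 18375 genes. The SE was derived from the fold change and its F statistic. The procedure was tested on simulated data. Alternatives were DESeq2 1.42.0, other scalings and filters, counts divided by 4, a threshold of 0.01, a replicate block and leaving out each library. Positions and exon lengths are from GENCODE M21, which held 99.7% of the identifiers.

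The 41 genes, the gene lists and the tests were chosen with earlier results of these data known. Values per library were planned for the genes with the largest called changes in each role and the best known members, and for the 3 largest called changes in each direction among the other repair genes, and the text gives most other members in the same way. Neighbouring genes and gene pairs were chosen after their values were seen. No set test was run, proteins were not analysed here, and some planned values are not reported here.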

Additional observations from a re-analysis of the deposited data

How the results depend on the processing

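The number of repair genes lower past the threshold (10) was 16 with DESeq2, 3 with the replicate block, 3 at an adjusted p below 0.01 and 5 to 13 when a library was left out (5 without wild-type library 1 or 3, 6 without knockout library 1 or 2). The 3 genes at the stricter threshold and with the block were Blm, Xrcc5 and Radx. The number higher (1) was 0 with the block and at 0.01, and 0 to 1 when a library was left out. Their median log2 fold change (-0.69) stayed between -0.86 and -0.48 without a library and between -0.74 and -0.61 otherwise. For the 99 other repair genes, the number lower (18) was 25 with DESeq2, 5 with the block, 3 at 0.01 and 6 to 21 without a library (6 without wild-type library 3, 7 without wild-type library 1 or knockout library 2, 8 without knockout library 1). The number higher (12) was 14 with DESeq2, 7 without a low-count filter, 1 with the block, 2 at 0.01 and 2 to 8 without a library. Causes were not tested. Same-numbered libraries deviated from their group means with correlations of -0.17, -0.19 and -0.05, and libraries of unlike number with -0.03 to 0.18. No effect shared by same-numbered libraries was thus visible, but this cannot show whether the libraries were paired by design. The block lowered the calls over all genes from 5535 to 2964. In 573 comparisons of single repair genes with an alternative, 500 gave the call and direction reported, 41 lost the call, 12 gained one and 20 changed sign, the last over 9 uncalled genes. Only the 10 lower genes and the 1 higher gene could lose a call. Of 13 alternative fits, Trp53bp1 kept it in 7, Brca1, Nbn, Fancg and Fanci in 8, and Fancd2 in 9. Rbbp8 kept it in 11, Xrcc2 in 12, and Blm and Xrcc5 in 13. Radx kept it in all 12 of its fits. Under a filter of 10 or more counts per library, log2 fold changes turned to 0.012 for Rad51d, 0.0019 for Rad50 and 0.0086 for Fanca. Leaving out a library gave ranges of -0.34 to 0.068 for Rad51c, -0.18 to 0.066 for Rad51d, -0.28 to 0.079 for Rad50, -0.46 to 0.037 for Chek2, -0.23 to 0.11 for Fanca, -0.48 to 0.10 for Fancm, -0.20 to 0.36 for Xrcc6, -0.0011 to 0.34 for Prkdc and -0.23 to 0.70 for Parp1.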
